A study of Mus musculus with 6 samples.

Results

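The cytochrome P450 genes were followed in the livers of mouse fetuses at E14.5, 3 of them Tmod3-/- and 3 Tmod3+/+. Members were the genes whose symbol begins with Cyp, a family number and a subfamily letter, without pseudogene symbols, and that had a probe set assigned to this 1 gene. This gave 84 genes of the 19938 named genes on the Affymetrix MoGene 1.0 ST array, each with 1 probe set. The submitters labelled the knockout livers as small and anemic and the wild type livers as normal, all on the C57BL/6J strain, and their design text speaks of independent embryos. Tmod3 encodes tropomodulin 3, which caps the pointed ends of actin filaments, and the sources used here do not say how the allele was made. Values are the deposited RMA values, read as log2. Each array carries 1 liver, and array values below are always listed in the order of replicates 1, 2 and 3.

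Cytochromes P450 are heme-containing monooxygenases that take electrons from a redox partner and insert 1 oxygen atom into a small hydrophobic substrate. Families 1 to 3 act mainly on foreign compounds, family 4 on fatty acids, and the higher families on cholesterol, bile acids, steroids, vitamin D and retinoic acid. In adult liver many are among the abundant hepatocyte transcripts, and a large part of that expression is switched on around and after birth. The fetal liver at this stage is mostly a blood-forming organ, so its RNA comes from erythroid cells as well as from hepatoblasts.

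The 84 genes lay low on these arrays. A gene was called well above the array median when its mean over the 6 arrays, minus the median of each array (1.36 to 1.43), was at least 2 on the log2 scale. No P450 gene reached that level, while 2081 of 19938 named genes did (10.4%). Of the members, 2 lay from 1 to 2 above the median, namely Cyp2c23 and Cyp20a1. In all, 2.38% of members and 17.6% of named genes were at least 1 above it, and 70 of the 84 members lay below it (83.3%, against 48.6% of named genes). Probe sets differ in how brightly they report a transcript, so these are positions on the array and not amounts of RNA.

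Olfactory receptor genes, a family that serves the nose, gave a reference for the low end of the scale. Their 1027 genes had a median of -0.30 relative to the array median, and 95% of them lay at or below 0.04. The median of the P450 genes was -0.18. Of the P450 genes, 14 lay above that 95th percentile (16.7%, against 47.4% of named genes). Cyp2c23 (1.22) and Cyp20a1 (1.15) were each exceeded by 1 olfactory receptor gene, whose level was 1.39. Next came Cyp4f16 (0.58), Cyp39a1 (0.57) and Cyp2d22 (0.48). The other 79 genes lay between -0.50 and 0.26.

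**Figure D1:**
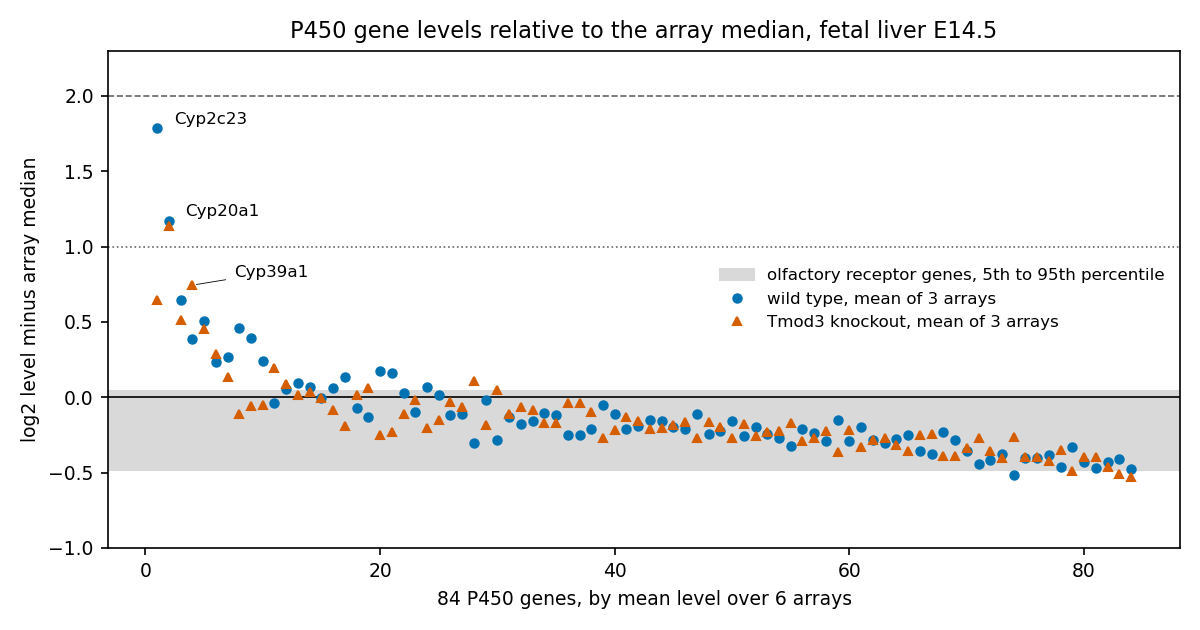
Level of the 84 P450 genes relative to the array median (log2, vertical axis), ordered by mean level over 6 arrays (horizontal axis), with the mean of 3 wild type arrays (circles) and 3 knockout arrays (triangles), dotted and dashed lines at 1 and 2, and a grey band from the 5th to the 95th percentile of the olfactory receptor genes. Cyp2c23 and Cyp20a1 stand above the rest in wild type liver, no point reaches 2, and most genes lie inside the band.

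Cyp20a1, whose natural substrate is not settled, lay above the median on all 6 arrays. It read 2.39, 2.62 and 2.66 on the knockout arrays, against 2.28, 2.66 and 2.73 on the wild type arrays. The groups overlapped, with a log2 difference (knockout minus wild type) of 0.00 (95% interval -0.34 to 0.34). Cyp51, the sterol demethylase of cholesterol synthesis, has no subfamily letter in its symbol and so was no member. It lay 1.92 above the array median and averaged 3.37 ± 0.08 without and 3.26 ± 0.55 with Tmod3 (SD, n = 3 each). The genes of prostacyclin synthase (Ptgis, -0.01) and thromboxane synthase (Tbxas1, 0.07), which belong to the superfamily under other symbols, lay at the median. These 3 genes were looked up after the values of the members had been seen.

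The promoters of the P450 genes held few CpG dinucleotides. RefSeq promoters of 300 bases (assembly GRCm38.p6, from 250 before the start to 50 after it) were found for 63 members and for 15563 of the tested genes. Members had a median of 3, against 15 for all tested genes, and 8 of the 63 members had at least 10 (12.7%, against 61.8%). Among tested genes under 1 above the array median, as all but 2 members are, 55.7% had at least 10 and the median was 12, and among those well above it 90.04% had at least 10. The letters TATAAA, searched on both strands, were found in 38.1% of member promoters and 12.1% of all. AGGTCA, the half-site of many nuclear receptors, was found in 23.8% and 13.9%, and GCGTG, the core of the aryl hydrocarbon receptor site, in 23.8% and 41.1%. GCGTG contains a CpG, while the other motifs do not. Member promoters had a median of 50.3% G and C, against 57.7% for all tested genes, and TATAAA holds neither letter. The motif shares were not compared at like G and C or at like level. A match says only that these letters occur.

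Cyp20a1 was among the 8 CpG-rich members, with 20 in its promoter. The 150 bases before the start are shown for Cyp20a1 and, for contrast, for Cyp3a11 and Cyp2d26, members with lower readings in knockout liver described below, with each CpG in capitals. They lie at chr1:60343150-60343299 (plus strand), chr5:145879855-145880004 (minus strand) and chr15:82794246-82794395 (minus strand) of GRCm38.p6.
Cyp20a1: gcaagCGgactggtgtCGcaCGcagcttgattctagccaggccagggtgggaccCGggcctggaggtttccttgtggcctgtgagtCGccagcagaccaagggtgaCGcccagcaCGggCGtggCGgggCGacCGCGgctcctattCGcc
Cyp3a11: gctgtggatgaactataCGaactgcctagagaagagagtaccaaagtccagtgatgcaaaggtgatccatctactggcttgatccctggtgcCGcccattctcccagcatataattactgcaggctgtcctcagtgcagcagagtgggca
Cyp2d26: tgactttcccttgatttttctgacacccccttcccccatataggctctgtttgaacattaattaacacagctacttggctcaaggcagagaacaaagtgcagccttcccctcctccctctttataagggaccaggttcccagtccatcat
The stretch of Cyp20a1 holds 13 CpG and 68.7% G and C. That of Cyp3a11 holds 2 CpG and 51.3%, and that of Cyp2d26 holds 0 CpG and 47.3%. A CpG-rich promoter did not go with a high level in every member: of the 8, 3 lay above the array median, and Cyp26a1 (26 CpG) lay at -0.45. The median level of the 8 was -0.11 relative to the array median, against -0.18 for members with under 10 CpG. Cyp2c23 had no entry among the promoters.

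**Figure D2:**
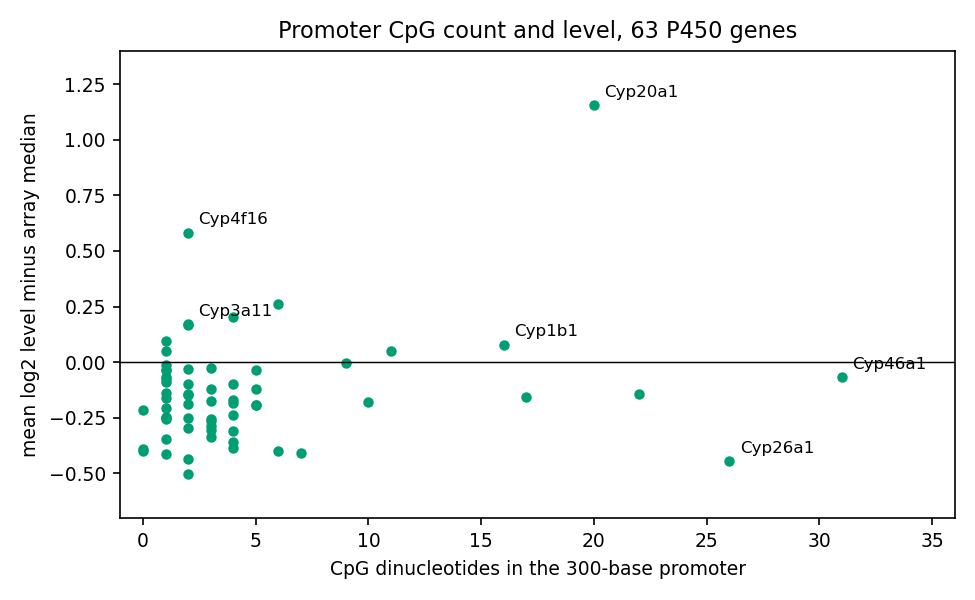
Number of CpG dinucleotides in the 300-base promoter (horizontal axis) and mean log2 level minus array median over 6 arrays (vertical axis), with 1 point for each of 63 P450 genes. Most genes sit at the left with few CpG and below 0, and Cyp20a1 stands apart with 20 CpG and a level of 1.15.

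The comparison of knockout with wild type liver asked which of these genes differ when Tmod3 is missing. Tmod3 itself read 1.32, 2.36 and 1.30 on the knockout arrays, against 4.49, 4.78 and 4.90 on the wild type arrays, so each array matched its label. No P450 gene passed the limma test (0 of 84 at an adjusted p of 0.05 over all genes), where 3 of 19938 genes passed (0.0150%). At an unadjusted p under 0.05 there were 6 members lower in knockout (7.14%, against 6.44% of all genes) and 1 higher (1.19%, against 2.59%). Groups did not overlap for 14 members (16.7%, against 13.2% of all genes). Of these, 8 were lower (9.52%, against 7.10%) and 6 were higher (7.14%, against 6.14%). These shares are near those of all genes. The median log2 fold change of the members was 0.04, against 0.01 for all genes and 0.03 for genes under 1 above the array median, and 71 members had a fold change within 0.25 of 0.

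Cyp2c23 had the smallest p of the members. It encodes an epoxygenase of arachidonic acid, also known as Cyp2c44. It read 2.08, 2.31 and 1.82 on the knockout arrays, against 2.89, 3.39 and 3.22 on the wild type arrays. Every knockout array lay below every wild type array. The group means were 2.07 ± 0.25 and 3.17 ± 0.25 (SD, n = 3 each). The log2 fold change was -1.10 (standard error 0.17, 95% interval -1.49 to -0.71), or 2.14-fold lower, and did not pass over all genes (limma adjusted p = 0.142). With 1 array left out, the fold change ran from -1.24 to -0.98. The limma adjusted p then ran from 0.0399 (without wild type replicate 1) to 0.623 (without wild type replicate 2). Without wild type replicate 1, whose Cyp2c23 reading was the lowest of its group, 95 of all genes passed, against 3 with all arrays. Relative to the array median, the gene lay at 1.78 in wild type and 0.65 in knockout liver. Among the 1424 genes from 1 to 2 above the array median the median fold change was -0.19, and 6 of them, Cyp2c23 included, were at or below -1.10.

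Cyp3a11, the main adult liver enzyme of its subfamily and a target of the pregnane X receptor, was next. It read 1.35, 1.21 and 1.35 on the knockout arrays, against 1.74, 1.96 and 1.83 on the wild type arrays, with no overlap. The log2 fold change was -0.54 (standard error 0.11, 95% interval -0.78 to -0.29), which did not pass (limma adjusted p = 0.202). The wild type livers lay 0.46 above the array median and the knockout livers at -0.11, within the range of most olfactory receptor genes, so the knockout readings are near the floor of the measurement. Leaving out 1 array gave fold changes from -0.59 to -0.48, with limma adjusted p from 0.0700 (without wild type replicate 1) to 0.694 (without wild type replicate 2).

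**Figure D3:**
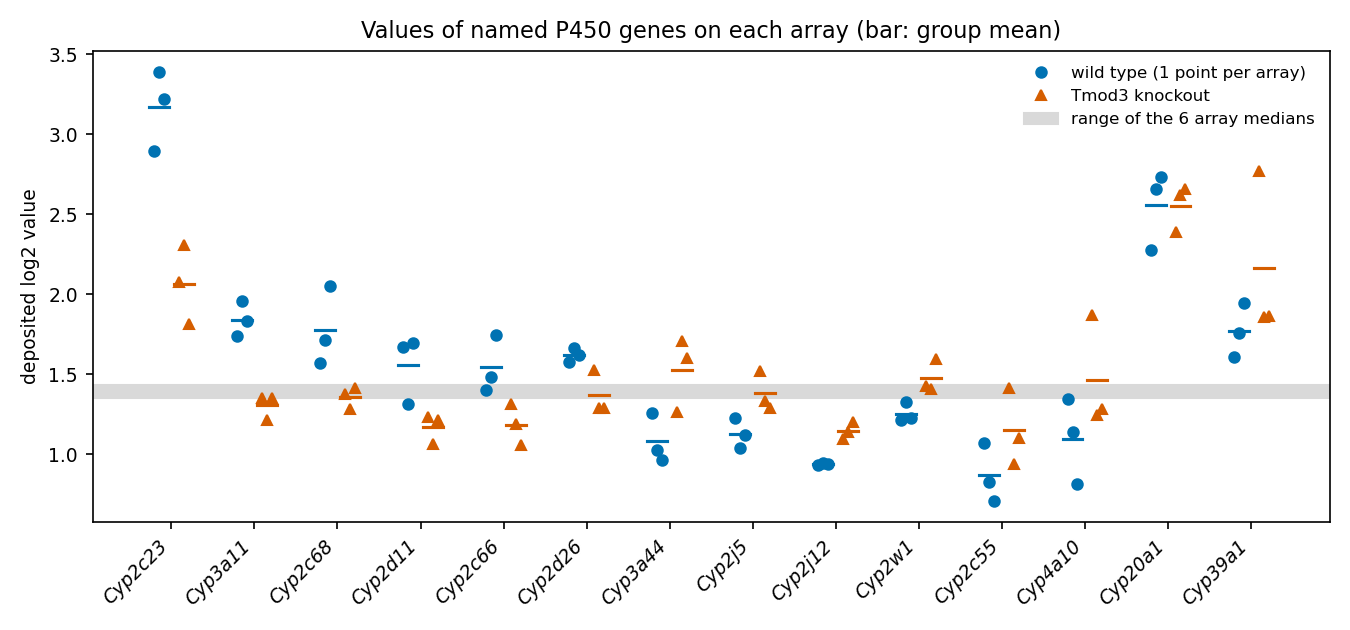
Deposited log2 values of 14 P450 genes (horizontal axis) on each array, with circles for 3 wild type and triangles for 3 knockout arrays, bars for group means and a grey band for the range of the 6 array medians. The groups lie farthest apart for Cyp2c23 (2.31 at most against 2.89 at least) and overlap for Cyp20a1, and most other genes lie near the band.

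The other family 2 members named by smallest p had low levels and small differences. Cyp2c68 read 1.38, 1.28 and 1.41 on the knockout arrays, against 1.57, 1.72 and 2.05 on the wild type arrays, a fold change of -0.42 on the log2 scale. Cyp2d11 had -0.39, Cyp2c66 had -0.36 and Cyp2d26 had -0.25. The groups did not overlap for any of these 4 genes, and none passed (limma adjusted p from 0.415 to 0.546). These 4 were picked by smallest p, which favours groups without overlap, and 7.10% of all genes were lower without overlap. Cyp2d26 read the same value on knockout replicates 2 and 3 (1.29). On the higher side, Cyp2j5 had +0.25 and Cyp2j12 +0.21, both of the Cyp2j subfamily of epoxygenases. Cyp2w1 had +0.22 and Cyp2c55 +0.28. The groups did not overlap for Cyp2j5, Cyp2j12 and Cyp2w1 (6.14% of all genes were higher without overlap), and overlapped for Cyp2c55. These 4 genes lay at or below the array median in wild type liver and did not pass (limma adjusted p from 0.556 to 0.658).

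Within the drug-metabolizing families the directions were mixed. Of the 43 family 2 genes, counted without the vitamin D gene Cyp2r1, 18 were lower and 25 higher in knockout liver, with a median of 0.05. The Cyp2c subfamily had 6 of 13 genes lower and a median of 0.01, and the Cyp2d subfamily 6 of 9 lower and a median of -0.02. Of the 6 Cyp3a genes 5 were lower, 3 of them without overlap (Cyp3a11, Cyp3a16 at -0.23 and Cyp3a57 at -0.18), where 7.10% of all genes were lower without overlap. The exception was Cyp3a44, which read 1.264, 1.71 and 1.60 on the knockout arrays, against 1.256, 1.03 and 0.96 on the wild type arrays (+0.44, limma adjusted p = 0.415). Its groups did not overlap either, by a gap of under 0.01. Of the lower Cyp3a genes, Cyp3a16 and Cyp3a57 lay below the array median (-0.07 and -0.16). Cyp3a13 and Cyp3a25 had fold changes of only -0.03 and -0.04. Genes of these subfamilies are near copies of each other, so a probe set may also take up transcripts of its relatives. A further 7 probe sets were assigned to several genes with a P450 gene among them, and 1 of these lay at least 1 above the array median (1.61). The log2 fold changes of these 7 probe sets ran from -0.79 to +0.13. The 3 genes of family 1, targets of the aryl hydrocarbon receptor, had fold changes of +0.05 (Cyp1a1), +0.11 (Cyp1a2) and +0.27 (Cyp1b1) with 0 past the threshold. Cyp1a1 and Cyp1a2 lay below the array median.

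**Figure D4:**
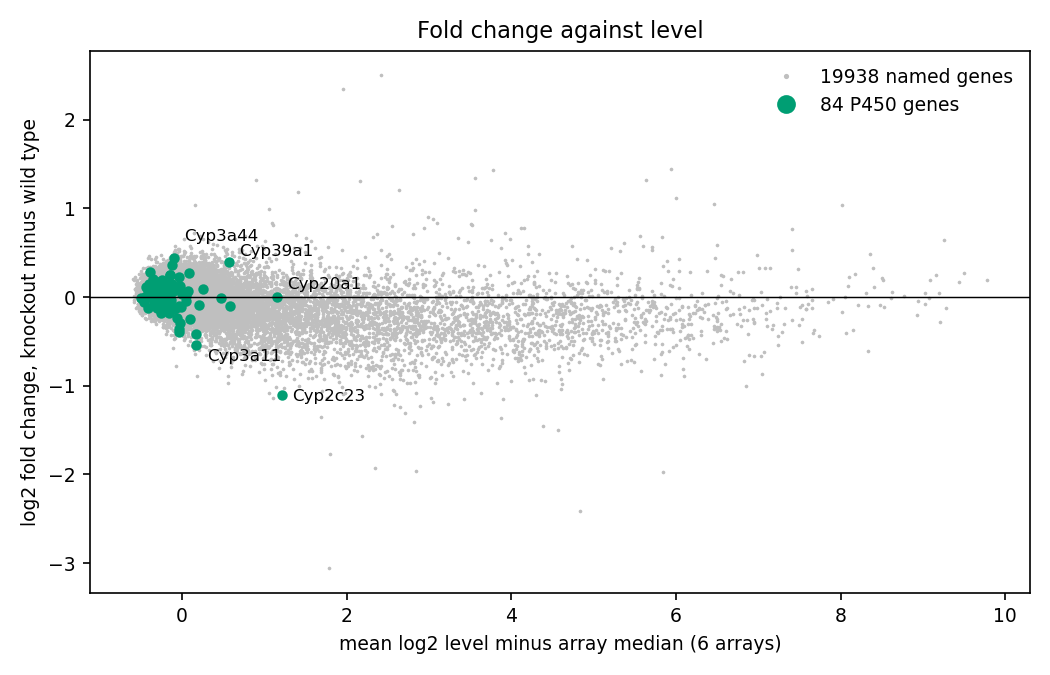
Log2 fold change, knockout against wild type (vertical axis) against mean log2 level minus array median (horizontal axis) for 19938 named genes (grey) and 84 P450 genes (green). The P450 genes crowd at the low end around a fold change of 0, and Cyp2c23 at -1.10 is the lowest of them.

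The enzymes of bile acid and cholesterol hydroxylation were 6. Cyp7a1, the rate-limiting enzyme of the classic pathway, lay at -0.28 relative to the array median, with Cyp7b1 at -0.30, Cyp8b1 at -0.19, Cyp27a1 at -0.18 and Cyp46a1 at -0.07. Their fold changes ran from -0.13 to +0.08. Cyp39a1, an oxysterol hydroxylase, read 2.77, 1.86 and 1.86 on the knockout arrays, against 1.61, 1.76 and 1.95 on the wild type arrays. Its fold change of +0.39 (limma adjusted p = 0.710) rested on knockout replicate 1, without which it was +0.09. Of the 8 other genes of bile acid synthesis, 0 passed, with a median of -0.12. The smallest p values were those of the peroxisomal oxidase gene Acox2 (-0.33), of Akr1d1 (-0.17) and of Scp2 (-0.31).

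Family 4, mainly fatty acid hydroxylases, had 15 members, 7 lower and 8 higher, with a median of 0.06. Cyp4f16 read 2.17, 1.67 and 1.96 on the knockout arrays, against 2.39, 1.78 and 1.92 on the wild type arrays, so the groups overlapped (-0.10, 95% interval -0.53 to 0.34). Cyp4a10, a target of PPAR alpha, had +0.37 with overlapping groups, and read 1.87, 1.24 and 1.29 on the knockout arrays, against 1.35, 1.14 and 0.81 on the wild type arrays (limma adjusted p = 0.669). Without knockout replicate 1 it was +0.17.

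The P450 genes of hormone and vitamin metabolism lay near or below the array median. Of the 5 steroid-making enzymes, Cyp17a1 had the highest position (0.07) and the cholesterol side-chain cleavage gene Cyp11a1 the lowest (-0.41). Of 9 measured markers of adrenal and gonad, 6 lay below the median, namely Inha (-0.26), Star (-0.17), Nr5a1 (-0.15), Amh (-0.11), Mrap (-0.10) and Mc2r (-0.07). Hsd3b1 (0.03) and Scarb1 (0.18) lay above it, and the adrenodoxin gene Fdx1 lay at 1.97. The fold change of Mrap was -0.47 and that of Hsd3b1 -0.28, and none of the 9 passed (limma). The vitamin D genes Cyp2r1 and Cyp27b1 lay at -0.14 each. The retinoic acid hydroxylase genes Cyp26a1, Cyp26b1 and Cyp26c1 had fold changes from -0.12 to +0.04. No P450 gene of these 3 groups passed (limma), had groups without overlap or had an unadjusted p under 0.05.

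The proteins that serve P450 enzymes and the receptors that control them gave 0 calls. Of 6 measured redox partners 5 were lower and 1 higher, with a median of -0.03. The adrenodoxin gene Fdx1 read 3.37 in both groups (log2 difference 0.00, 95% interval -0.24 to 0.23), and the cytochrome b5 gene Cyb5a averaged 4.77 ± 0.05 without and 4.96 ± 0.50 with Tmod3 (SD, n = 3 each). Of 19 regulators 10 were lower and 9 higher, with a median of -0.01. Nr1i3, the constitutive androstane receptor, had +0.21, Nr1h3, a liver X receptor, -0.14, and the aryl hydrocarbon receptor gene Ahr +0.21. The 23 genes of conjugation and transport had a median of -0.15, with 15 lower. Among them the flavin monooxygenase gene Fmo5 read 2.16, 1.78 and 1.82 on the knockout arrays, against 2.65, 2.98 and 2.64 on the wild type arrays (-0.84, limma adjusted p = 0.181), Tpmt had -0.42 and the bile salt pump gene Abcb11 had -0.33.

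Markers of hepatocytes mostly read lower in knockout liver, as Cyp2c23 did. Of 25 markers, none of them a P450 gene, 23 were lower and 2 higher in knockout liver, with a median log2 fold change of -0.44, and 0 passed (limma; 7 were lower at an unadjusted p under 0.05, against 6.44% of all genes, and 0 higher, against 2.59%). Of the 25 markers 22 lay at least 1 above the array median, where the median log2 fold change of all genes was -0.22. Serpinc1 had -0.64, Apoh -1.24 and Vtn -0.88, while Alb read 9.43 ± 0.61 against 10.04 ± 0.12 and Afp 10.62 ± 0.21 against 10.57 ± 0.11 (SD, n = 3 each). The mean over the 25 markers was 5.79, 5.83 and 5.04 on the knockout arrays and 5.77, 6.08 and 6.17 on the wild type arrays, so the groups overlapped and knockout replicate 3 was lowest. The value of Cyp2c23 minus this mean was -3.71, -3.52 and -3.22 on the knockout arrays and -2.87, -2.69 and -2.95 on the wild type arrays. These groups did not overlap and differed by -0.65, against -1.10 as deposited. The part of the hepatocyte markers in the lower Cyp2c23 readings was not tested beyond these values. Without knockout replicate 3 the fold change of Cyp2c23 was -0.98. Late hepatocyte enzymes had 8 of 12 genes lower and a median of -0.14, with Otc at -0.92, Hpd at -0.59 and Gys2 at -0.44, and 0 passed. Their mean was 1.79, 1.65 and 1.60 on the knockout arrays and 1.85, 1.88 and 1.89 on the wild type arrays, without overlap. Erythroid markers were lower in 14 of 14 (median -0.38) and macrophage markers in 10 of 12 (median -0.24). The erythroid mean was 4.25, 4.52 and 4.18 on the knockout arrays and 4.47, 4.82 and 4.90 on the wild type arrays, with overlap. The macrophage mean was 2.14, 2.04 and 1.65 on the knockout arrays and 2.03, 2.23 and 2.41 on the wild type arrays, with overlap. At least 1 above the array median lay 13 of these erythroid and 5 of these macrophage markers. Endothelial markers were higher in 10 of 14 (median 0.10), and their mean was 1.75, 1.81 and 1.75 on the knockout arrays and 1.62, 1.69 and 1.66 on the wild type arrays, without overlap. Stellate and mesenchymal markers were higher in 12 of 15 (median 0.13), and markers of gut and pancreas in 7 of 10 (median 0.04). The stellate and mesenchymal mean was 1.80, 1.94 and 1.99 on the knockout arrays and 1.71, 1.89 and 1.87 on the wild type arrays, with overlap. The mean over the gut and pancreas markers was nevertheless lower in knockout liver, without overlap. It was 1.90, 1.95 and 1.78 on the knockout arrays and 1.97, 2.03 and 2.07 on the wild type arrays. The lower mean rested on Fabp2, 1 of these markers, which had -1.97 (limma adjusted p = 0.229). In each of these 5 lists 0 genes passed (limma). In whole liver, fewer hepatocytes and less RNA per hepatocyte cannot be told apart.

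**Figure D5:**
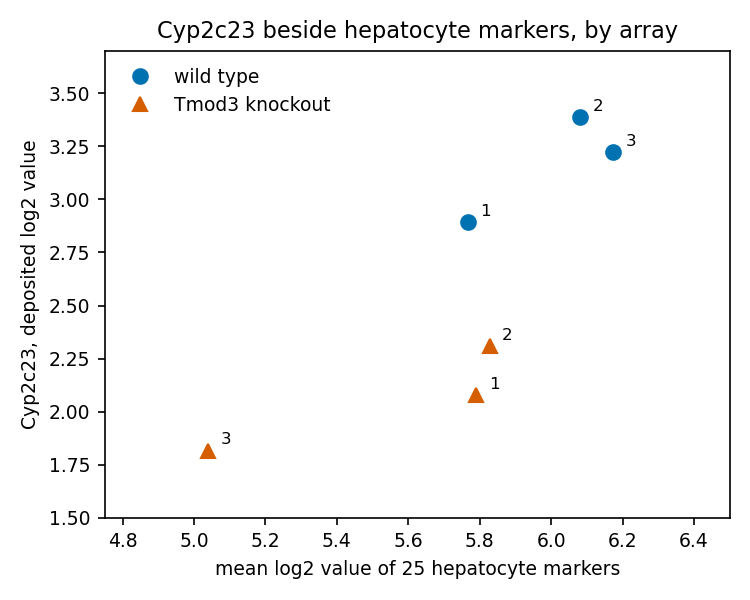
Deposited log2 value of Cyp2c23 (vertical axis) against the mean log2 value of 25 hepatocyte markers (horizontal axis) on each array, numbered by replicate, with circles for wild type and triangles for knockout. Knockout replicates 1 and 2 have marker means (5.79 and 5.83) close to that of wild type replicate 1 (5.77) and lower Cyp2c23 values (2.08 and 2.31 against 2.89).

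The position of the genes near Tmod3 was also looked at, since 4 members share its chromosome 9. In the gene order of GRCm38.p6, 155 protein-coding genes lie between Tmod3 and Cyp11a1, 161 between it and Cyp1a1, 162 between it and Cyp1a2 and 423 between it and Cyp8b1. Their fold changes ran from +0.05 to +0.15.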

How the data were processed

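Total RNA of 6 fetal livers was measured on Affymetrix MoGene 1.0 ST arrays, 1 array per embryo. Per the submitters' processing notes, the deposited log2 values come from RMA (version not stated). The log base is not stated and was read as 2 from the array maxima (11.8 to 12.7), since the scanner's range would be exceeded with base e. Array medians of 1.36 to 1.43 are lower than RMA usually gives, and the sources used here give no reason, so a level says only where a gene lies on its array. Arrays have no read depth, and their number limits the precision. Of 28853 probe sets, 21789 had 1 symbol in the platform annotation, 1621 had several and 5443 were not named there; each gene took its brightest probe set. All 84 members matched a gene table of GRCm38.p6 by Entrez identifier.

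The groups were compared by a two-sided moderated test (limma 3.58.1, R 4.3.3, lmFit then eBayes) without covariates, adjusted by Benjamini-Hochberg over 19938 genes, at a threshold of 0.05. The fit was tested on simulated data of this comparison with 200 of 19938 genes changed: 71.3% of those changed by 1 and 96.5% of those changed by 2 on the log2 scale were recovered. The Benjamini-Hochberg adjustment is milder when more genes pass. In the real data 3 genes passed, so these shares do not give the recovery of the comparison itself. Members and lists were chosen with earlier results of these data known. Named genes were the 6 lower and 6 higher members with the smallest p and up to 3 genes per list; Cyp20a1, Cyp39a1, Cyp4f16, Cyp2d22 and all other members, and Alb, Afp, Fdx1 and the adrenal and gonad markers other than Mrap, Hsd3b1 and Star, were named after their values were seen. A mean level over members well above the median was planned, but none was; members at least 1 above were used. The olfactory receptor reference, the subtraction of the hepatocyte marker mean, the level of 1 for the mean level of members and the promoter searches were chosen after the data had been seen.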

Additional observations from a re-analysis of the deposited data

How the results depend on the processing

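No P450 gene passed in the fit with all arrays or under any of the alternatives except 1: leaving out 1 array gave 0 to 1 (Cyp2c23 without wild type replicate 1, adjusted p = 0.0399, when 95 genes passed in all). Cyp2c23 kept its direction in all settings, from -1.24 to -0.98. With the replicate number as a block, its value stayed -1.10 (adjusted p = 0.255), with 0 P450 genes and 0 of all genes passing. Same-numbered deviations from the group means correlated at 0.11, 0.06 and -0.11, which cannot show whether the replicate numbers pair the embryos. All genes past the threshold were 3 as reported, 0 to 95 without 1 array, 6 after renewed quantile normalization, 11 with array weights and 15 among genes at least 1 above the array median. Members without overlap numbered 18 to 24 without 1 array (21.4% to 28.6%, against 19.8% to 32.2% of all genes), where fewer values must separate, 1 of 2 among genes at least 1 above the median and 5 of 20 among genes above it on at least 3 arrays (22.2% and 15.5% of all genes). The members' median was -0.55 and -0.068 under these filters, which left fewer genes, against -0.22 and -0.056 for all genes. Counted at 1 above the median, 2 members were well above, and 0 at 3, in wild type arrays alone or at the 90th percentile of named genes. The mean deposited log2 value of Cyp2c23 and Cyp20a1 was 2.31 in knockout and 2.86 in wild type livers, a difference of -0.55 (-0.69 to -0.47 without 1 array). Signs of differences near 0 turned: Cyp20a1 (-0.14 to +0.086 without 1 array, +0.14 after quantile normalization), Cyp2d22 (-0.11 to +0.14 without 1 array, +0.022 after quantile normalization), and Cyp4f16 (-0.22 to +0.083 without 1 array, +0.027 with array weights). The cause was not tested. Readings near the array median limit what a fold change can show.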
